A study of Mus musculus with 16 samples.

Results

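The genes described here are 39 mouse interferon-stimulated genes, taken from a named list and found on the array by symbol or older synonym. Of the 39, 38 had a probe and 36 were bright enough to be tested, among 15667 genes tested in all. Xaf1 was not analysed here, and Oas3 and Mx1 were too dim. Each gene stands for its brightest probe, and 34 of the 36 were well above background on all 16 arrays, so the filter on dim probes hardly chose among them. Cxcl10 was above background on 15 arrays. Igtp was measured on 15, because its spot on WT baseline replicate 2 was an outlier and was dropped.

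The tissue was a ring of left ventricle cut at mid height, from age- and weight-matched mice backcrossed to C57BL/6 N, with 1 array per mouse and 4 groups of 4 arrays, each of 2 males and 2 females. NOS3-TG mice carry nitric oxide synthase 3, the endothelial enzyme that makes nitric oxide, as a transgene (alpha-MHC-NOS3) whose alpha-myosin heavy chain promoter is active in cardiomyocytes, and their wild-type (WT) littermates carry only the mouse's own gene. Within each genotype, 1 group was left intact (baseline) and the other was taken 10 weeks after transverse aortic constriction (TAC), surgery that narrows the aorta and loads the left ventricle. No sham-operated group was analysed here, so load cannot be told apart from surgery.

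Interferons are secreted proteins that cells release when they sense viral or misplaced nucleic acid. Type I interferons signal through JAK kinases to a transcription factor complex that includes STAT2 and IRF9 and binds the interferon-stimulated response element (ISRE) in promoters. Interferon gamma, made mainly by T and NK cells, acts on another promoter element, GAS. The genes switched on include sensors of viral RNA and DNA, blockers of translation and replication, the ubiquitin-like protein ISG15, GTPases that attack intracellular parasites, and chemokines. In the heart they are known from viral myocarditis and from the response of macrophages to dying tissue.

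The promoter table from RefSeq (build GRCm38.p6, 250 bases before to 50 after a gene's start) held 33 promoters of 29 members. The ISRE core, searched as GAAANNGAAA on both strands, was found in 15 of the 33 promoters (45.5%) and in 3.44% of all 32851 promoters in the table. The GAS letters TTCNNNGAA, which read the same on both strands and can overlap the ISRE core, were found in 7 of the 33 (21.2%) and in 8.30% of all. A match describes letters in this window and shows no binding. The windows below show 1 ISRE match each in capitals, 5′ to 3′ on the gene's strand, for members that stand for the response patterns described further on: Ifit1, Ifit3 and Isg15 were called with both genotype and TAC, Rsad2 and Oas1a with TAC, Igtp and Irgm1 with genotype, and Gbp2 with neither.
Ifit1: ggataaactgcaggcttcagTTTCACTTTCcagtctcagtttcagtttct
Ifit3: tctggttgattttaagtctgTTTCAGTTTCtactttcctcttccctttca
Isg15: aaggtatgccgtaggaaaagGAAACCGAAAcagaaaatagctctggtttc
Rsad2: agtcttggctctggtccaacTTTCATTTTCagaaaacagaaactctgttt
Oas1a: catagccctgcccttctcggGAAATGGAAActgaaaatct
Igtp: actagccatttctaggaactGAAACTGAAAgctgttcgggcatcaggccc
Irgm1: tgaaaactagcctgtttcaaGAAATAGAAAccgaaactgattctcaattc
Gbp2: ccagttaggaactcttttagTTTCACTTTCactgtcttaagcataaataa

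On GRCm38.p6 the plus-strand windows lie at chr19:34640765-34640814 (Ifit1), chr19:34583387-34583436 (Ifit3), chr11:58199502-58199551 (Igtp) and chr3:142620584-142620633 (Gbp2). The minus-strand windows lie at chr4:156200861-156200910 (Isg15), chr12:26456543-26456592 (Rsad2), chr5:120907526-120907565 (Oas1a) and chr11:48871421-48871470 (Irgm1). All are upstream of the gene's start, with the match beginning at -104 in Ifit1, -122 in Ifit3, -72 in Isg15, -120 in Rsad2, -20 in Oas1a, -34 in Igtp, -30 in Irgm1 and -59 in Gbp2. Further matches, in lower case where they fall within these windows, begin at -85 in Ifit1, -156 in Ifit3, -78 and -66 in Isg15, -14 in Oas1a and -24 in Irgm1, and some of them overlap the match shown. Of the tested members with a promoter in the table, the ISRE core was present in 3 of 7 called with both genotype and TAC, 7 of 11 called with TAC only, 2 of 2 called with genotype only and 2 of 7 called with neither.

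As a check of the labels, the Nos3 signal lay between 0.96 and 1.85 on the WT arrays and between 6.95 and 8.03 on the NOS3-TG arrays, on the scale used throughout: log2 processed signal minus that array's 75th percentile. The share of probes well above background was 50.6% to 55.8% on 13 arrays. Among the transgenic mice it fell outside that range on 3 arrays: replicate 2 at baseline had 44.5%, and of the TAC mice replicate 3 had 46.2% and replicate 4 had 68.0%. The counts of members called with genotype and with TAC are therefore also given without these 3 arrays. Cardiomyocyte markers were bright in all groups, with a summed signal of 2391 to 3582 times the 75th percentile for 14 genes. Each array slide held both genotypes and both sexes but only TAC or only baseline mice, so TAC cannot be told apart from slide, while genotype can be read within a slide. In whole tissue, fewer cells of a type and less RNA per cell cannot be told apart.

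Across the 4 groups the members formed a ladder. WT baseline had the lowest mean for 33 of the 36 members and NOS3-TG TAC the highest for 32. Relative to WT baseline, the median member stood 0.40 higher in WT TAC, 0.39 higher in NOS3-TG baseline and 0.87 higher in NOS3-TG TAC, in log2 units. The groups in between changed places: NOS3-TG baseline lay above WT TAC in 15 members with WT baseline lowest and NOS3-TG TAC highest, and below it in another 15. The range of the summed linear signal of all members was 82.5 to 107 in WT baseline, 96.5 to 128 in WT TAC, 118 to 165 in NOS3-TG baseline and 141 to 226 in NOS3-TG TAC, in multiples of the 75th percentile. The median sums were 91.1, 112, 156 and 161 in the same order, so the NOS3-TG groups were close on this measure. The 226 was NOS3-TG TAC replicate 3, 1 of the arrays that stand apart, and the others of its group gave 141 to 163.

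**Figure D1:**
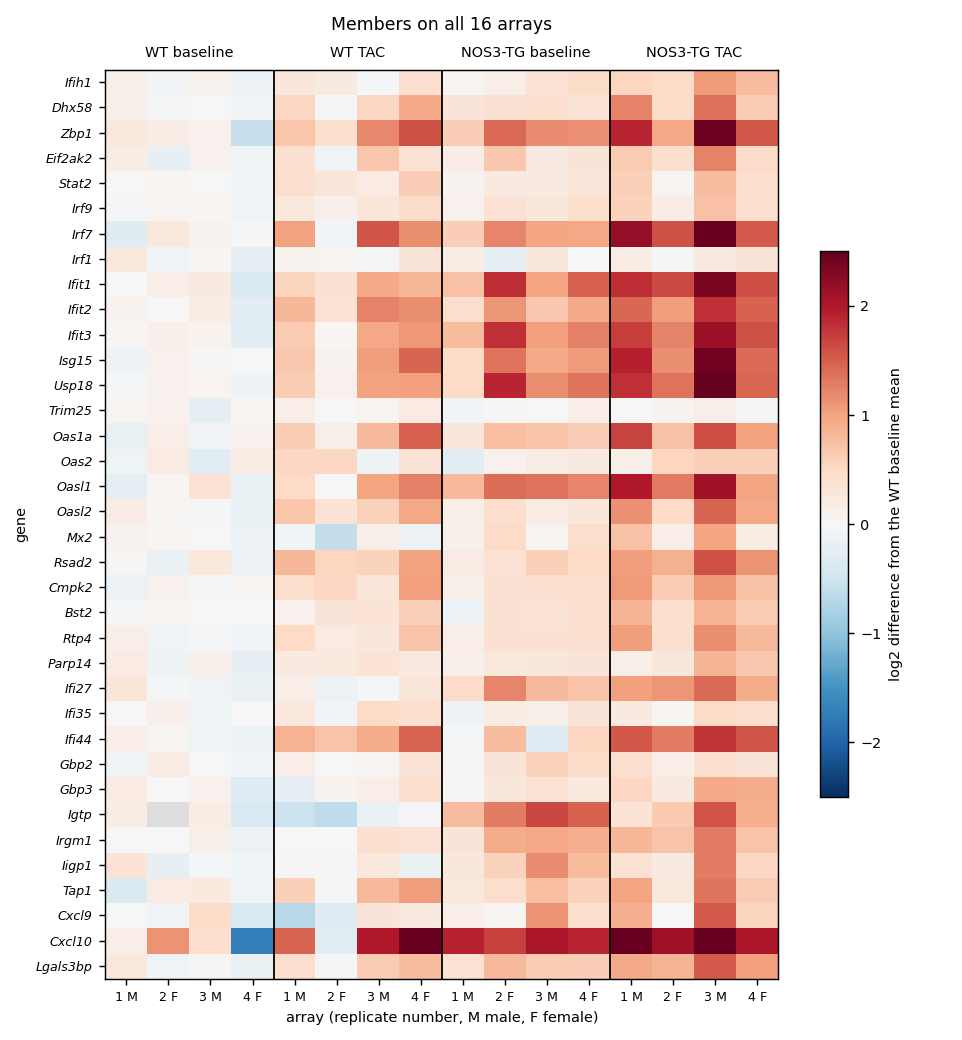
Each row is 1 of the 36 tested members and each column 1 array, grouped by genotype and condition, with replicate number and sex (M, F) below; colour is the log2 difference from the WT baseline mean, clipped at the ends of the scale, and the grey cell is the dropped Igtp spot. WT TAC replicate 2 stays close to the WT baseline arrays, and NOS3-TG TAC replicate 3 is the darkest column.

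The first comparison asks what the cardiomyocyte NOS3 transgene does to these genes. Averaged over baseline and TAC, 12 of 36 members were higher in NOS3-TG and none was lower, where 1.48% of all genes tested were called higher. They were the antiviral genes Ifit1, Ifit2, Ifit3, Oasl1, Isg15, Usp18 and Irf7 and the secreted glycoprotein gene Lgals3bp. The others were Ifi27, which encodes a mitochondrial protein, and 3 of the 5 interferon gamma-type GTPases, Igtp, Irgm1 and Iigp1. The difference was positive in 35 of 36 members, with a median of 0.41, where the median of all genes was -0.03. The exception, Trim25, read -0.02 ± 0.06 (SE). This count depends on the probe, since the other probes of Irf1 (-0.20), Parp14 (-0.05) and Trim25 (0.06) gave the opposite sign. Every difference in this and the following paragraphs is a log2 difference from limma with its SE, over 8 against 8 arrays for averaged comparisons and 4 against 4 otherwise, with Benjamini-Hochberg adjustment over all genes.

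Within either condition alone the same contrast gave fewer calls. At baseline only Ifit1 was called higher, where 0.332% of all genes were, although the difference was positive in 36 of 36 members. An unadjusted p under 0.05 was found for 20 of the 36 and for 1926 of all 15667 genes. In 21 of 36 members all 4 NOS3-TG baseline arrays lay above all 4 WT baseline arrays, against 3.89% of all genes. Under TAC only Ifi27 was called higher, where 0.255% of all genes were, with 35 of 36 differences positive. Here 22 of the 36 had an unadjusted p under 0.05, as did 1922 of all 15667 genes. Arrays did not overlap in 9 of 36 members, against 3.6% of all genes. Both calls were unstable: of 28 alternative fits each, Ifit1 kept its call in 10 and Ifi27 in 20. With 1 array left out, the highest adjusted p was 0.157 for Ifit1 (WT baseline replicate 4) and 0.0683 for Ifi27 (WT TAC replicate 1). Without the 3 arrays that stand apart neither was called. The median difference was 0.39 at baseline and 0.52 under TAC, and without the 3 arrays that stand apart it was 0.39 and 0.33.

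Ifi27, a small hydrophobic protein gene of the mitochondrial and nuclear membranes, had the smallest adjusted p of all members in the genotype comparison. It read 3.67, 3.33, 3.27 and 3.18 on the WT baseline arrays and 3.53, 3.21, 3.31 and 3.66 on the WT TAC arrays. On the NOS3-TG arrays it read 3.84, 4.57, 4.16 and 4.08 at baseline and 4.39, 4.47, 4.77 and 4.28 after TAC. All 8 NOS3-TG arrays lay above all 8 WT arrays, and WT baseline and WT TAC overlapped. The difference was 0.93 ± 0.12 (adjusted p = 0.00144), a 1.90-fold higher level. Under TAC alone it was 1.06 ± 0.17 (adjusted p = 0.0206). Its TAC change of 0.19 ± 0.12 did not pass (adjusted p = 0.226). The brightest probe carries the older name D12Ertd647e in the files and was named Ifi27 by its accession. A second probe, called Ifi27 in the files and assigned by symbol alone, showed a smaller genotype difference of 0.36 and a larger TAC difference of 0.59, and with the mean of both probes its call for genotype under TAC was lost. Other probes that the files call Ifi27 carry an accession of the neighbouring gene Ifi27l2a, whose genotype difference was 0.33 ± 0.18 (adjusted p = 0.398). With TAC over both genotypes Ifi27l2a was called higher, by 0.62 ± 0.18 (adjusted p = 0.0158).

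The IFIT genes encode proteins that bind foreign RNA and block its translation. Ifit1 read -1.45, -1.29, -1.23 and -1.84 in WT baseline and -0.72, 0.38, -0.47 and 0.02 in NOS3-TG baseline. After TAC it read -0.90, -1.07, -0.50 and -0.63 in WT and 0.40, 0.19, 0.91 and 0.16 in NOS3-TG. The genotypes did not overlap in either condition, and Ifit1 was the only member called at baseline (1.26 ± 0.25, adjusted p = 0.0472). Over both conditions the difference was 1.22 ± 0.17 (adjusted p = 0.00306), or 2.33-fold. Within the 4 slides it was 1.20, 1.28, 1.10 and 1.31.

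Ifit3 read 1.54, 1.61, 1.58 and 1.21 in WT baseline, 2.12, 1.54, 2.46 and 2.57 in WT TAC, 2.28, 3.31, 2.51 and 2.74 in NOS3-TG baseline and 3.22, 2.73, 3.63 and 3.08 in NOS3-TG TAC. Here too the genotypes were separate within each condition, while WT TAC replicate 2 lay among the WT baseline arrays. The genotype difference was 1.11 ± 0.19 (adjusted p = 0.00948), and the second Ifit3 probe gave 1.08. Ifit2 was higher in NOS3-TG by 0.67 ± 0.15 (adjusted p = 0.0377). Ifit3 has a near-identical neighbour, Ifit3b, and the probe may read both.

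The ISG15 system attaches a ubiquitin-like tag to proteins. Usp18, the protease that removes the tag and also damps the type I receptor, was higher in NOS3-TG by 1.16 ± 0.22 (adjusted p = 0.0167). Isg15 itself was higher by 0.93 ± 0.21 (adjusted p = 0.0417). The files place the Isg15 probe on chromosome 17 and RefSeq places the gene on chromosome 4, so its reading is less certain. Trim25, a ligase that activates the RNA sensor RIG-I, showed neither a genotype nor a TAC difference that passed, although its other probe gave a TAC difference of 0.38.

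Among the transcription factors, Irf7, the amplifier of type I interferon production, was higher in NOS3-TG by 0.99 ± 0.21 (adjusted p = 0.0279). The parts of the complex that binds the ISRE differed less: 0.24 ± 0.08 for Irf9 (adjusted p = 0.159) and 0.14 ± 0.09 for Stat2 (adjusted p = 0.495). Irf1, which responds mainly to interferon gamma, read 0.06 ± 0.09 (adjusted p = 0.784), with -0.20 at its other probe. Oasl1, an OAS-like protein that restrains Irf7 translation, was higher by 1.05 ± 0.20 (adjusted p = 0.0183), while the enzymes Oas1a (0.55 ± 0.19) and Oas2 (0.11 ± 0.10) and the OAS-like Oasl2 (0.32 ± 0.12) did not pass. Lgals3bp was higher by 0.62 ± 0.13 (adjusted p = 0.0258). The nucleic acid sensor Zbp1 read 0.91 ± 0.23 and did not pass (adjusted p = 0.0578).

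Of the 5 interferon gamma-type GTPases 3 were called with genotype and none with TAC over both genotypes. Igtp, a GTPase that acts on membranes of parasite vacuoles, read 3.56, 3.57 and 3.01 on the 3 measured WT baseline arrays, 2.84, 2.75, 3.22 and 3.33 in WT TAC, 4.15, 4.66, 5.05 and 4.86 in NOS3-TG baseline and 3.71, 4.03, 4.94 and 4.29 in NOS3-TG TAC. All 8 NOS3-TG arrays lay above the 7 WT arrays. The genotype difference was 1.26 ± 0.20 (adjusted p = 0.00916), or 2.40-fold, and the TAC difference was -0.38 ± 0.20 (adjusted p = 0.161).

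Irgm1, a regulator of the same GTPase family, read 1.23, 1.23, 1.37 and 1.10 in WT baseline, 1.23, 1.23, 1.64 and 1.59 in WT TAC, 1.56, 2.17, 2.20 and 2.15 in NOS3-TG baseline and 2.06, 1.95, 2.53 and 1.94 in NOS3-TG TAC. The genotypes did not overlap within a condition, with NOS3-TG baseline replicate 1 the lowest transgenic array. The difference was 0.74 ± 0.12 (adjusted p = 0.00822). Iigp1, an effector GTPase of this family, was higher by 0.63 ± 0.15 (adjusted p = 0.0475), and the guanylate-binding proteins Gbp2 (0.27 ± 0.08, adjusted p = 0.132) and Gbp3 (0.38 ± 0.13, adjusted p = 0.157) did not pass. The largest genotype difference of all members was that of Cxcl10, a chemokine for T and NK cells, at 1.60 ± 0.43, but its spread was wide (-4.62 to -1.79 over the WT baseline arrays) and it did not pass (adjusted p = 0.0823).

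The genotype calls depended on single arrays to different degrees. Of the 12 calls, 7 held whichever array was left out: Ifi27, Ifit1, Ifit3, Igtp, Irgm1, Usp18 and Oasl1. The other 5 reached adjusted p = 0.100 (Iigp1, without WT baseline replicate 3), 0.0861 (Isg15, without NOS3-TG baseline replicate 4), 0.0817 (Ifit2, without WT baseline replicate 4), 0.0603 (Irf7, without NOS3-TG baseline replicate 4) and 0.0569 (Lgals3bp, without WT baseline replicate 4). The count fell to 7 without each of WT baseline replicates 3 and 4, WT TAC replicate 1 and NOS3-TG baseline replicates 2 and 4. Without the 3 arrays that stand apart in the share of probes above background, which are all transgenic, 2 calls were left, Ifi27 and Ifit1. Calls fell over all genes too, with 65 of 15667 called higher in place of 232. The median difference of the members was then 0.33 in place of 0.41. With slide as a block the count was 13. Within the baseline slides NOS3-TG was higher in 31 of 35 members, with Igtp not measured there in WT, and in 36 of 36. Within the TAC slides it was higher in 31 and 34 of 36.

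**Figure D2:**
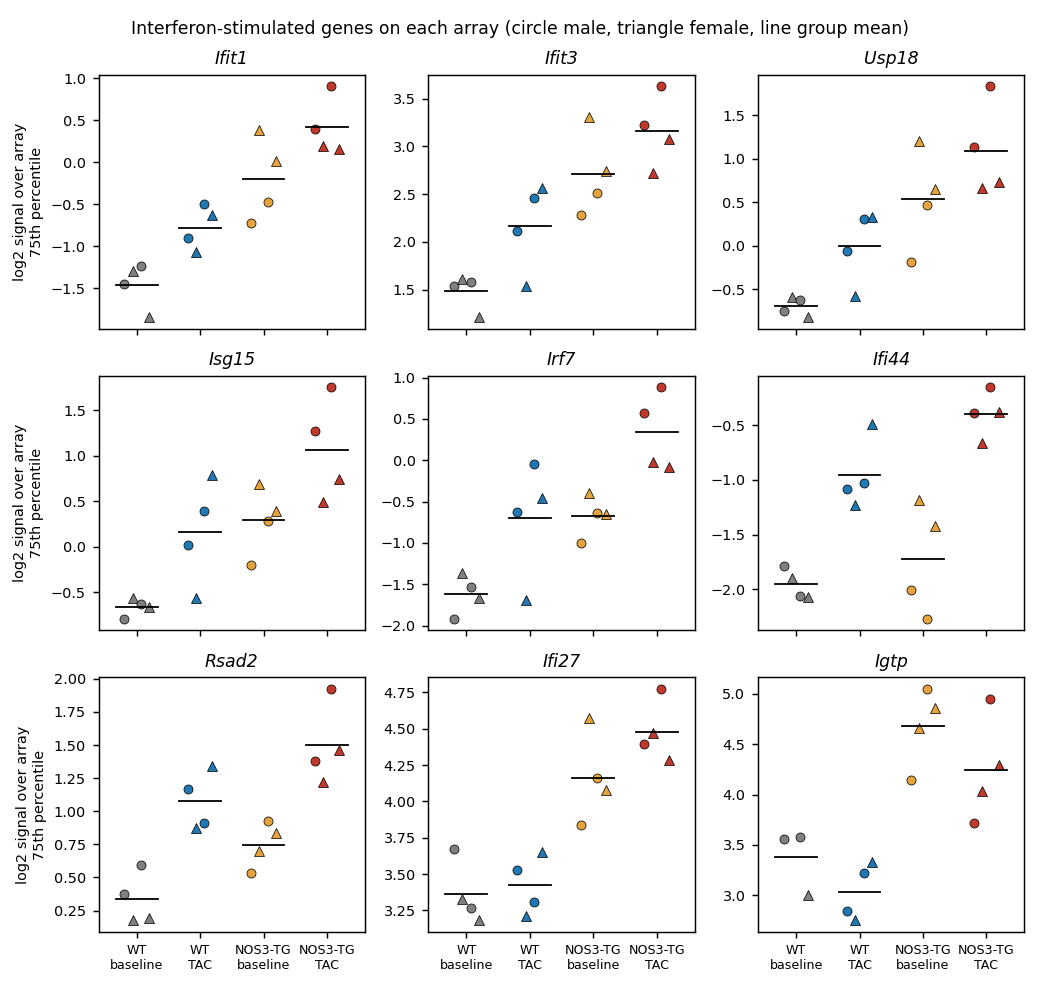
Each panel plots 1 member on every array as log2 signal relative to the array's 75th percentile, with circles for males, triangles for females and a line at the group mean; the vertical axes differ between panels. Ifi27 and Igtp separate the genotypes over all arrays and Ifit1 and Ifit3 within each condition, whereas Ifi44 and Rsad2 separate TAC from baseline within each genotype.

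The second comparison asks what 10 weeks of TAC do. Over both genotypes 23 of 36 members rose and none fell, where 16.3% of all genes were called higher, and the median change was 0.42. In WT mice 10 members rose, where 10.9% of all genes did: Ifi44, Rsad2, Ifit2, Cmpk2, Oasl2, Irf7, Zbp1, Oas1a, Stat2 and Rtp4. In NOS3-TG mice 6 of these 10 rose, where 6.46% of all genes did: Ifi44, Rsad2, Oasl2, Cmpk2, Rtp4 and Irf7. All 4 TAC arrays lay above all 4 baseline arrays in 13 of 36 members in WT and in 10 in NOS3-TG, against 10.2% and 9.17% of all genes.

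Ifi44, an interferon-induced cytoplasmic protein, had the smallest adjusted p of all members with TAC. It read -1.78, -1.89, -2.06 and -2.07 in WT baseline and -1.08, -1.23, -1.03 and -0.49 in WT TAC. In NOS3-TG it read -2.01, -1.18, -2.27 and -1.42 at baseline and -0.39, -0.67, -0.16 and -0.38 after TAC. TAC and baseline did not overlap in either genotype. The change was 1.16 ± 0.15 over both genotypes (adjusted p = 0.000122), or 2.23-fold, and the genotype difference of 0.40 ± 0.15 did not pass (adjusted p = 0.213).

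Rsad2 encodes viperin, which makes a chain-terminating nucleotide that stops viral RNA synthesis. It read 0.37, 0.18, 0.60 and 0.20 in WT baseline, 1.17, 0.88, 0.91 and 1.34 in WT TAC, 0.54, 0.70, 0.92 and 0.84 in NOS3-TG baseline and 1.38, 1.22, 1.92 and 1.47 in NOS3-TG TAC. Again TAC and baseline were separate in both genotypes. Rsad2 rose by 0.74 ± 0.11 (adjusted p = 0.00025), although its other probes gave smaller changes of 0.38 and 0.43.

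Cmpk2, the nucleotide kinase next to Rsad2 in the genome that supplies viperin's substrate, read -1.16, -0.90, -1.04 and -0.94 in WT baseline and -0.57, -0.48, -0.70 and 0.01 in WT TAC. In NOS3-TG it read -0.86, -0.62, -0.61 and -0.57 at baseline and 0.06, -0.38, 0.08 and -0.28 after TAC. The groups of a genotype did not overlap, and Cmpk2 rose by 0.55 ± 0.11 (adjusted p = 0.00148), with 0.37 at its other probe.

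Rtp4, a chaperone-like protein induced by type I interferon, read 2.12, 1.87, 1.93 and 1.89 in WT baseline, 2.45, 2.16, 2.23 and 2.66 in WT TAC, 2.12, 2.34, 2.34 and 2.35 in NOS3-TG baseline and 3.01, 2.36, 3.12 and 2.76 in NOS3-TG TAC. The groups touched but did not overlap, since NOS3-TG TAC replicate 2 was barely above the highest NOS3-TG baseline array. Rtp4 rose by 0.47 ± 0.11 (adjusted p = 0.00375). Bst2, the tetherin that holds budding virus at the cell surface and is also a marker of plasmacytoid dendritic cells, read 2.94, 3.02, 2.97 and 2.98 in WT baseline, 3.08, 3.29, 3.32 and 3.56 in WT TAC, 2.83, 3.35, 3.32 and 3.40 in NOS3-TG baseline and 3.82, 3.39, 3.84 and 3.61 in NOS3-TG TAC. The WT groups were separate and the NOS3-TG groups overlapped. Bst2 rose by 0.39 ± 0.10 over both genotypes (adjusted p = 0.0085).

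OAS enzymes sense double-stranded RNA and make the messenger that switches on RNase L, and the OAS-like proteins are their relatives. Oasl2 read 0.54, 0.39, 0.32 and 0.21 in WT baseline, 1.06, 0.70, 0.93 and 1.34 in WT TAC, 0.52, 0.81, 0.55 and 0.64 in NOS3-TG baseline and 1.50, 0.86, 1.81 and 1.32 in NOS3-TG TAC. TAC lay above baseline without overlap in both genotypes, with a rise of 0.70 ± 0.12 (adjusted p = 0.000954). Oas1a read -1.30, -0.96, -1.21 and -1.02 in WT baseline, -0.49, -0.98, -0.31 and 0.35 in WT TAC, -0.81, -0.38, -0.40 and -0.51 in NOS3-TG baseline and 0.57, -0.40, 0.50 and -0.11 in NOS3-TG TAC. Replicate 2 of each TAC group lay within its baseline range, and the rise over both genotypes was 0.72 ± 0.19 (adjusted p = 0.00913). Oas2 (0.36 ± 0.10, adjusted p = 0.0153) and Oasl1 (0.54 ± 0.20, adjusted p = 0.0481) rose as well.

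Irf7 was the transcription factor with the largest change. It read -1.92, -1.36, -1.54 and -1.67 in WT baseline, -0.62, -1.69, -0.05 and -0.46 in WT TAC, -1.0, -0.40, -0.64 and -0.65 in NOS3-TG baseline and 0.58, -0.02, 0.88 and -0.08 in NOS3-TG TAC. WT TAC replicate 2 lay within the baseline range and the NOS3-TG groups were separate. Irf7 rose by 0.96 ± 0.21 (adjusted p = 0.00319), Stat2 by 0.31 ± 0.09 (adjusted p = 0.0179) and Irf9 by 0.24 ± 0.08 (adjusted p = 0.0367), whereas Irf1 read 0.11 ± 0.09 and did not pass (adjusted p = 0.352). The other Irf9 probe gave 0.05.

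All 4 sensors rose over both genotypes. Dhx58 encodes LGP2, a helicase that tunes RNA sensing. It read -1.89, -2.04, -2.04 and -2.11 in WT baseline, -1.50, -2.07, -1.51 and -1.07 in WT TAC, -1.71, -1.65, -1.61 and -1.69 in NOS3-TG baseline and -0.78, -1.57, -0.65 and -1.38 in NOS3-TG TAC. The NOS3-TG groups were separate, and WT TAC replicate 2 again lay within the baseline range. Dhx58 rose by 0.53 ± 0.14 (adjusted p = 0.00937), the Z-form nucleic acid sensor Zbp1 by 0.80 ± 0.23 (adjusted p = 0.0137), the RNA helicase MDA5 gene Ifih1 by 0.33 ± 0.10 (adjusted p = 0.0191) and the kinase PKR gene Eif2ak2 by 0.34 ± 0.13 (adjusted p = 0.0492).

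All 3 IFIT genes rose with TAC too. Ifit2 read -1.0, -1.08, -0.89 and -1.35 in WT baseline, -0.26, -0.73, 0.17 and 0.07 in WT TAC, -0.65, 0.01, -0.41 and -0.13 in NOS3-TG baseline and 0.35, -0.04, 0.74 and 0.38 in NOS3-TG TAC. The WT groups did not overlap, and the NOS3-TG groups overlapped through replicate 2 of both. Ifit2 rose by 0.78 ± 0.15 (adjusted p = 0.00163), Ifit1 by 0.65 ± 0.17 (adjusted p = 0.011) and Ifit3 by 0.57 ± 0.19 (adjusted p = 0.0283), with 0.93 at the second Ifit3 probe. Isg15 (0.80 ± 0.21, adjusted p = 0.0107), Usp18 (0.62 ± 0.22, adjusted p = 0.0383), Lgals3bp (0.47 ± 0.13, adjusted p = 0.0122) and Cxcl10 (1.18 ± 0.43, adjusted p = 0.0464) completed the 23.

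The members that did not pass with TAC included all 5 GTPases of the interferon gamma type, with changes from -0.38 (Igtp) to 0.28 (Gbp3). The peptide transporter Tap1 (0.46 ± 0.17, adjusted p = 0.0524), the chemokine Cxcl9 (0.09 ± 0.21), Parp14, a transferase of ADP-ribose (0.25 ± 0.10, with the opposite sign at its other probe), Ifi35 (0.22 ± 0.10), Ifi27, Trim25, Irf1 and the GTPase Mx2 (0.04 ± 0.13) did not pass either. Of the 36 members, 8 were called with both genotype and TAC, 15 with TAC only, 4 with genotype only and 9 with neither. Of all genes, 54 were called higher in both. The split by call does not by itself show that genotype and TAC changes of a gene differ, and that difference was not tested. The TAC and genotype comparisons share arrays.

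**Figure D3:**
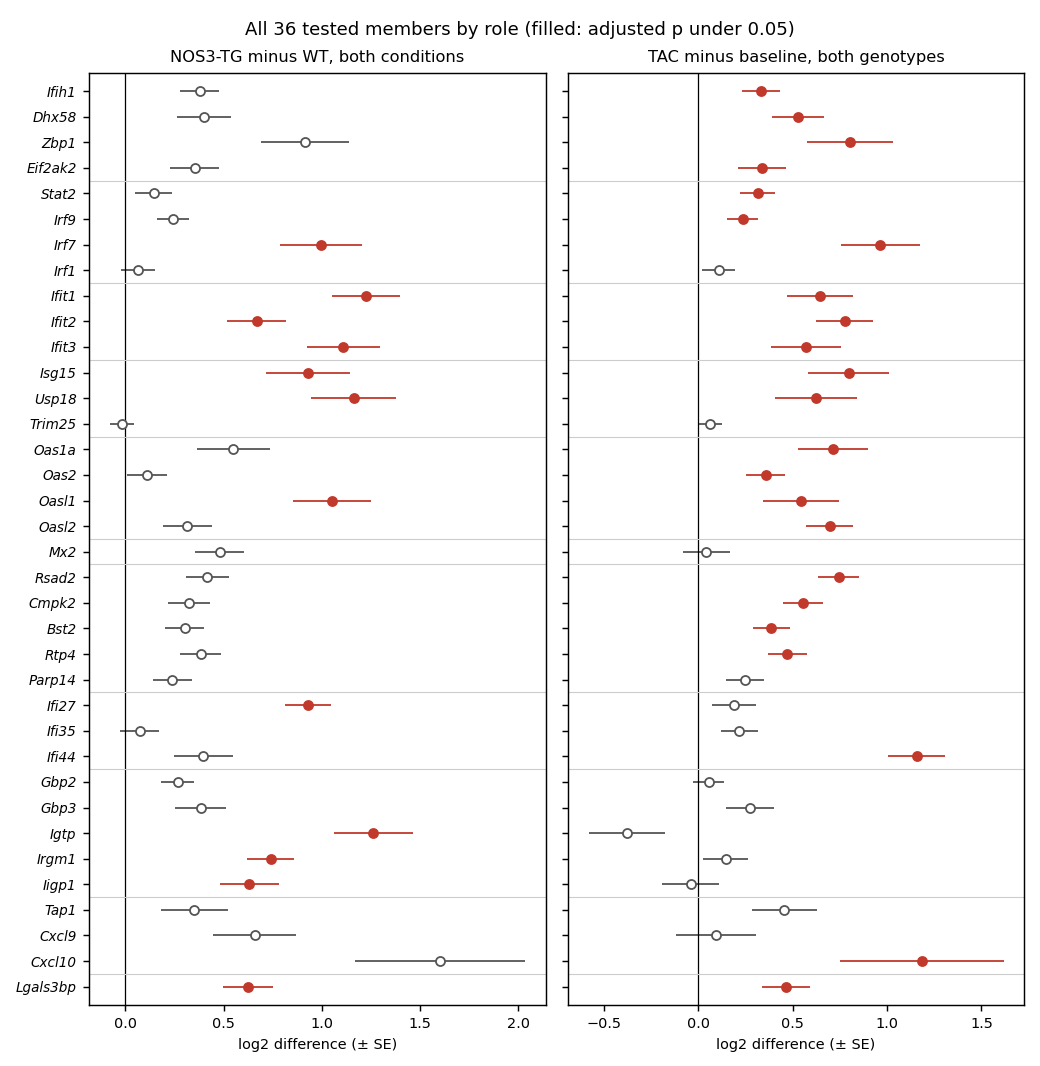
Points are log2 differences of the 36 tested members, with SE as bars, for NOS3-TG minus WT over both conditions (left) and TAC minus baseline over both genotypes (right); filled points are called and grey lines separate roles. On the left Ifi27, Igtp, Irgm1 and Iigp1 are called and on the right they are not, while Ifi44, Rsad2, Cmpk2 and all 4 sensors are called on the right.

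The TAC counts moved with single arrays. In WT the count of 10 rose to 19 without WT TAC replicate 2 and fell to 4 without WT TAC replicate 4, to 6 without WT TAC replicate 1 and to 5 without each of WT baseline replicates 1, 3 and 4. In NOS3-TG the count of 6 rose to 10 without NOS3-TG TAC replicate 2 or WT TAC replicate 4. It fell to 2 without NOS3-TG baseline replicates 1 or 3 and to 3 without NOS3-TG baseline replicate 4 or NOS3-TG TAC replicates 1 or 3. Over both genotypes it stayed between 17 and 25. Without NOS3-TG TAC replicate 3 the calls were 17 higher and 1 lower, Igtp (-0.51 ± 0.18, adjusted p = 0.0463). Of the 23 calls 17 held whichever array was left out. The other 6 reached adjusted p = 0.0615 (Ifit3) and 0.0800 (Usp18) without WT TAC replicate 4, 0.0786 (Irf9), 0.102 (Eif2ak2) and 0.0998 (Oasl1) without NOS3-TG baseline replicate 1, and 0.0926 (Cxcl10) without NOS3-TG TAC replicate 3. Without the 3 arrays that stand apart the counts were 9 in WT, 1 (Ifi44) in NOS3-TG and 17 over both. Of all 15667 genes, 1571 were then called higher in WT, 212 in NOS3-TG and 1799 over both.

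Slide also bears on the TAC results. One of the slides with TAC arrays, slide 3, was scanned on a different day from all others. The median TAC difference of the members on it was 0.51 in WT and 0.58 in NOS3-TG, against 0.25 and 0.27 on slide 2. Slide 3 was the only slide of its day and held only TAC mice. A fit with scan day as a block therefore takes the averaged TAC difference from the TAC arrays of slide 2 alone. Fewer arrays and a scan day effect cannot be told apart in it. With this block 3 members were called in WT (Rsad2, Ifit2 and Ifi44), 2 in NOS3-TG (Rsad2 and Ifi44) and 8 over both. Of these 8, 7 were higher (Rsad2, Oasl2, Oas2, Ifit2, Cmpk2, Irf7 and Ifi44) and Igtp was lower (adjusted p = 0.0278). With the same block 1020 of all 15667 genes were called higher in WT, 462 in NOS3-TG and 1418 over both. Without it these were 1706, 1012 and 2553. The median TAC difference of the members was then 0.27 in place of 0.42 over both genotypes and 0.26 in place of 0.44 in NOS3-TG. With slide as a random block the counts were 7 in WT (Oas1a, Stat2 and Rtp4 lost), 5 in NOS3-TG (Irf7 lost) and 18 over both (Usp18, Eif2ak2, Irf9, Oasl1 and Cxcl10 lost). Of all 15667 genes, 1548 were then called higher in WT, 876 in NOS3-TG and 2205 over both.

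The test of whether the TAC change differed between genotypes called 0 of 36 members with limma, at 0% of all genes. An unadjusted p under 0.05 was found for 0 members and for 1164 of all 15667 genes. The median of this interaction over the members was -0.04. Between males and females 0 members were called by limma, where 1.33% of all genes were called in either direction. Here 1 member had an unadjusted p under 0.05, as did 2497 of all 15667 genes. Oas3, at 1 of 16 arrays well above background (NOS3-TG TAC replicate 4), and Mx1, at 3 of 16 arrays (WT TAC replicate 1, NOS3-TG TAC replicates 1 and 4), were below the filter, and no fold is given for them.

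Once group means and sex, but not slide or scan day, were removed, the members still rose and fell together from array to array. The median correlation of residuals over the 16 arrays was 0.60 for the 630 pairs of members and 0.06 for all pairs of genes. These values are a description, since all genes share arrays, slides, scan days, scaling and RNA samples. Zbp1 followed the mean of the other members most closely (r = 0.96), then Irf9 (0.95), Isg15 (0.94), Usp18 (0.91) and Ifit3 (0.90). Irf1 (0.13) and Oas2 (0.10) did not follow it. The mean residual of the members was highest on NOS3-TG TAC replicate 3 (0.37) and WT TAC replicate 4 (0.35) and lowest on NOS3-TG baseline replicate 1 (-0.33), WT TAC replicate 2 (-0.30) and NOS3-TG TAC replicate 2 (-0.29). On slide 2 it was negative on every array: -0.11 and -0.30 in WT TAC and -0.01 and -0.29 in NOS3-TG TAC. On slide 3 it was 0.05 and 0.35 in WT TAC and 0.37 and -0.07 in NOS3-TG TAC. The part of slide in these residuals was not tested. Of the non-members, those whose residuals were most like the members' mean over the 16 arrays were the class I histocompatibility genes H2-T10 (r = 0.96) and H2-T23 (0.93), their light chain B2m (0.94), the OAS gene Oas1f (0.92) and the GTPase Ifi47 (0.92). The H2 genes are near-identical copies, and a probe may read several of them.

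The upstream genes of the pathway were mostly not called. Of 53 further pathway genes 38 were tested. The interferons themselves were mostly below the filter: Ifnb1, Ifna2, Ifna11, Ifna12, Ifnk and Ifne were well above background on 0 of 16 arrays, Ifna4 and Ifna6 on 1 and Ifng on 3, and none of the 4 tested ligands was called in any of the TAC or genotype comparisons. With TAC 8 of the 38 rose and 4 fell over both genotypes, where 16.3% of all genes were called higher and 20.9% lower, so the share that rose over both genotypes (21.1%) was near that of all genes. In WT alone 9 of the 38 rose (23.7%) and 3 fell. Of all 15667 genes 4455 were called there in either direction, and 10.9% of all rose. In NOS3-TG 1 rose and 1 fell, where 6.46% and 5.34% of all genes did. Over both genotypes the DNA-sensing adaptor Sting1 rose by 0.55 ± 0.09 (adjusted p = 0.000691), the signalling adaptor Traf3 by 0.46 ± 0.07 (adjusted p = 0.000367) and the myeloid factor Irf8 by 0.46 ± 0.11 (adjusted p = 0.00594). The DNA exonuclease Trex1, which prevents sensing of the cell's own DNA, fell by 0.37 (adjusted p = 0.001), and Irf3, the factor that turns on interferon genes, fell by 0.31 (adjusted p = 0.00409). With genotype 3 of the 38 were higher over both conditions, where 1.48% of all genes were. Tbk1, the kinase that activates IRF3, was higher by 0.70 ± 0.07 (adjusted p = 0.00019), the endosomal RNA receptor Tlr7 by 0.43 ± 0.09 (adjusted p = 0.0279) and Trex1 by 0.31 ± 0.07 (adjusted p = 0.0307).

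Of a further list of 60 known interferon-induced genes 46 were tested. With TAC over both genotypes 25 of them (54.3%) were higher and 1 lower, where 16.3% and 20.9% of all genes were. With genotype over both conditions 4 (8.70%) were higher, where 1.48% of all genes were. Those higher with genotype were Apol9b (1.80 ± 0.30, adjusted p = 0.00916), the chemokine Ccl5 (1.33 ± 0.22, adjusted p = 0.00916), the guanylate-binding protein Gbp6 (0.80 ± 0.15, adjusted p = 0.0149) and the GTPase Irgm2 (0.75 ± 0.14, adjusted p = 0.0174). With TAC, Gbp6 rose by 1.05 ± 0.15 (adjusted p = 0.000192) and Apol9b by 1.00 ± 0.30 (adjusted p = 0.0184). Unlike the 5 member GTPases, Gbp6 and the GTPase Ifi47 (0.58 ± 0.17, adjusted p = 0.0170) were thus called with TAC, whereas Irgm2 was not. This contrast with the member GTPases was not tested. The gene lowered by TAC was Nampt, an enzyme of NAD salvage (-0.93 ± 0.14, adjusted p = 0.000395).

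Macrophage markers moved with both comparisons. Of 20 listed, 19 were tested, and their summed signal ranged from 74.8 to 90.2 in WT baseline, 97.1 to 125 in WT TAC, 104 to 126 in NOS3-TG baseline and 115 to 135 in NOS3-TG TAC. With genotype at baseline 19 of 19 were positive, with a median of 0.60, and 2 were called higher, where 0.332% of all genes were. These 2 were Adgre1 (0.63 ± 0.11, adjusted p = 0.0315) and Csf1r (0.59 ± 0.10, adjusted p = 0.0254). Under TAC the genotype median was 0.12 with 0 called by limma (2 at an unadjusted p under 0.05), while that of the interferon-stimulated genes was 0.52 (0.33 without the 3 arrays that stand apart). The macrophage median was not computed without those arrays. With TAC over both genotypes 7 of the 19 rose and 2 fell, where 16.3% and 20.9% of all genes did. The 2 that fell were Lyve1 (-0.61 ± 0.15, adjusted p = 0.00692) and Folr2 (-0.36 ± 0.10, adjusted p = 0.0104). In WT 9 of the 19 rose with TAC (10.9% of all genes did), with a median of 0.45. In NOS3-TG 2 rose and 1 fell (6.46% and 5.34% of all genes did), with a median of -0.05, where the median of the interferon-stimulated genes was 0.44. The test of whether the TAC change differed between genotypes called 0 of the 19 with limma, with 5 at an unadjusted p under 0.05 and a median of -0.51. The part of macrophages in the members' differences was not tested.

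**Figure D4:**
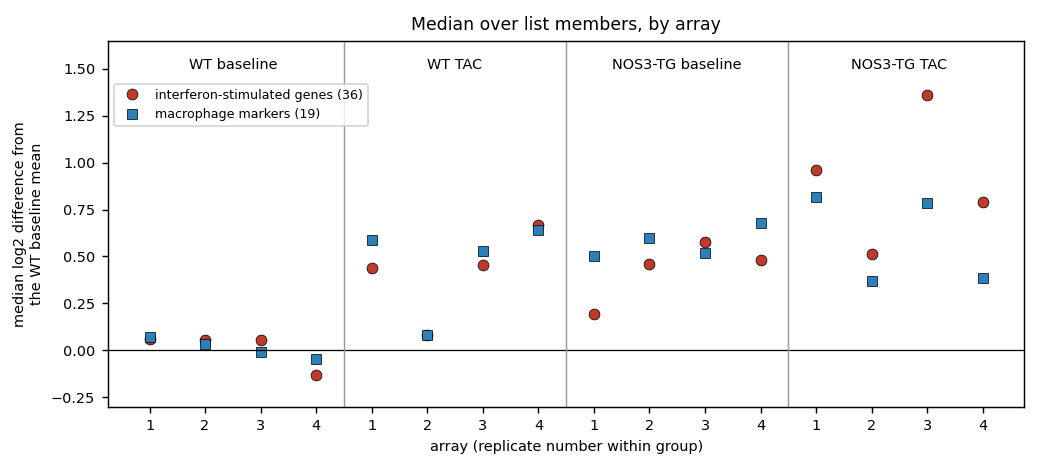
For each array, the red circle is the median over the 36 tested members and the blue square the median over 19 macrophage markers of the log2 difference from the WT baseline mean. The circles and squares rise together in WT TAC, and in NOS3-TG TAC the circles lie between 0.51 and 1.36 and the squares between 0.37 and 0.82.

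Beside the counts in this paragraph stand those of all genes, of which 16.3% rose and 20.9% fell with TAC over both genotypes. With genotype over both conditions 1.48% were called higher, and 2554 of all 15667 genes had an unadjusted p under 0.05. T and NK cell markers were mostly dim, with 7 of 16 tested and the NK and cytotoxic genes Ncr1, Gzma and Prf1 above background on 0 arrays. Their summed signal ranged from 1.07 to 1.43 in WT baseline, 1.04 to 1.60 in WT TAC, 1.26 to 1.71 in NOS3-TG baseline and 1.40 to 1.68 in NOS3-TG TAC, and 1 of the 7, Nkg7, was called higher with genotype over both conditions (1.12 ± 0.24, adjusted p = 0.0326). The T cell gene Cd3d fell with TAC in WT (-1.53 ± 0.40, adjusted p = 0.0124). Of 10 dendritic cell markers 6 were tested, and Siglech, Clec9a and Cd209a were above background on 0 arrays. With TAC over both genotypes 2 of the 6 rose, Tcf4 (0.19 ± 0.07, adjusted p = 0.0427) and Bst2, which is also a member. Of 12 endothelial markers none was called with genotype by limma (5 at an unadjusted p under 0.05), and 11 of 12 differences were negative, with a median of -0.21. With TAC over both genotypes 6 of the 12 rose, among them Cldn5 (0.48 ± 0.14, adjusted p = 0.0171), Kdr (0.40 ± 0.12, adjusted p = 0.0205) and Cdh5 (0.38 ± 0.08, adjusted p = 0.00234). Of 12 fibroblast markers 5 rose and 1 fell with TAC over both genotypes, led by Postn (2.07 ± 0.34, adjusted p = 0.000572) and Mfap4 (1.87 ± 0.29, adjusted p = 0.000394), and none was called with genotype (0 at an unadjusted p under 0.05). Of 14 cardiomyocyte markers none was called with genotype (1 at an unadjusted p under 0.05) and 13 of 14 were negative, with a median of -0.12, and with TAC over both genotypes 5 of the 14 fell. The part of these cell types in the members' differences was not tested.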

How the data were processed

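The deposited spot intensity is the processed signal, background-subtracted and detrended by Feature Extraction (Agilent, 9.5.1.1), per the file headers. A log2 table for 22057 probes, also deposited, served as an alternative, and how it was normalized is unstated. Control and outlier spots were left out. Log2 signal was scaled to the 75th percentile of its array, probes well above background on 4 or more arrays were kept, and RefSeq accessions or symbols named them. Limma 3.58.1 in R 4.3.3 with the data.table package, version 1.17.8, fitted group means and sex on 16 arrays, two-sided, with calls at a Benjamini-Hochberg adjusted p under 0.05 and no p for the list as a whole. The fit was tested on simulated data. Summaries and plots used Python 3.11.15, pandas 2.3.3, numpy 2.4.6 and matplotlib 3.10.9. The members, the other lists and the tests were chosen with earlier results of these data known. The 15 called members with the smallest adjusted p are given array by array. The number of arrays limits the precision.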

Additional observations from a re-analysis of the deposited data

Results flagged for a closer look

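In 7 of 143 groups of 4 arrays checked, 1 array lay far from the other 3 by Dixon's test at the 95% level, which chance gives in about 1 group in 20 (log2 signal relative to the 75th percentile throughout). NOS3-TG baseline replicate 1 was the low array in 4 of the 7: Irgm1 at 1.56 with the others from 2.15 to 2.20, Bst2 at 2.83 with the others from 3.32 to 3.40, Rtp4 at 2.12 with the others from 2.34 to 2.35, and Cmpk2 at -0.86 with the others from -0.62 to -0.57. Trim25 was low on WT baseline replicate 3, at 1.56 with the others from 1.83 to 1.87. Oas2 was low on NOS3-TG TAC replicate 1, at -0.25 with the others from 0.14 to 0.21. Parp14 was high on WT TAC replicate 3, at 2.95 with the others from 2.83 to 2.85.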

How the results depend on the processing

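Over 53 pairs of a member and a comparison that called it, 1486 alternative fits kept 1156 calls, lost 330 and reversed 0. Counts of members called moved by more than 1.5 times as follows. With TAC in WT the count of 10 became 5 with no filter and 3 with scan day as a block. With TAC in NOS3-TG the count of 6 became 2 with no filter, 15 with array weights, 3 with the compared groups only, 2 with scan day as a block and 1 without the arrays that stand apart. With TAC over both genotypes the count of 23 became 8 with scan day as a block. With genotype at baseline the count of 1 became 0 with normexp background, no filter, the mean of all probes, the compared groups only or without the arrays that stand apart, 2 in the authors' table, 4 with probes above background on all arrays, with an intensity trend or with slide as a block, and 7 with array weights. With genotype under TAC the count of 1 became 0 with no filter, the mean of all probes, the compared groups only or without the arrays that stand apart, and 2 with probes above background on all arrays, an intensity trend or slide as a block. With genotype over both conditions the count of 12 became 7 with no filter and 2 without the arrays that stand apart. Leaving out 1 array at a time gave 4 to 19 (TAC in WT), 2 to 10 (TAC in NOS3-TG), 17 to 25 (TAC over both), 0 to 6 (genotype at baseline), 0 to 2 (genotype under TAC), 7 to 18 (genotype over both) and 0 for interaction and sex. Calls over all genes moved as well. Genes called higher with TAC over both genotypes went from 2553 to 1418 of 15667 with scan day as a block. Genes called higher with genotype over both conditions went from 232 to 65 of 15667 without the arrays that stand apart. With no filter they were 112 of 27670. The cause of these changes was not tested. The median genotype difference of the members over both conditions was 0.33 to 0.49 over the alternatives run. With scan day as a block, which leaves only slide 2 to give the averaged TAC difference, its median over the members went from 0.42 to 0.27. Replicate numbers were given in accession order and the labels pair no samples, so no paired analysis was made.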
